A study of Rattus norvegicus with 12 samples.

Results

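The miR-99/100 and miR-125 families were followed through terminal differentiation of rat parotid acinar cells. These cells make and store the proteins of the gland's serous saliva. All miRNA assays were taken whose name, without the species prefix and the arm suffix, is miR-99a, miR-99b, miR-100, miR-125a or miR-125b. This gave 5 assays of the 375 miRNA assays in the deposited table, all of them mouse-named and none rat-named, and all 5 were among the 192 assays that passed the detection filter.

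RNA came from acinar cells cut out of the parotid by laser capture microdissection in Sprague Dawley albino rats at embryonic day 20 (E20) and at postnatal days 5, 15 and 25 (P5, P15 and P25). Each age had 3 biological replicates, taken from separate litters. By the study's methods the tissue was frozen within the divided head at E20 and the early postnatal ages and as the dissected gland in animals older than P5, so this step cannot be told apart from age. Captures of the same sample were combined before RNA isolation, so a sample is a pool of many captured cells, and fewer cells of a type cannot be told apart from less of a miRNA per cell. miRNAs were measured by qRT-PCR on an array with a pair of LNA primers per well.

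A mature miRNA is a short RNA that guides a repressor complex to messenger RNAs, mainly through its seed, the bases near its 5′ end. miR-125 is the vertebrate relative of lin-4, the developmental timing miRNA of worms, and both miR-125 and let-7 bind the messenger RNA of Lin28, whose protein blocks let-7 maturation. Members of the miR-99/100 family are known to bind the messenger RNA of the growth kinase Mtor. In vertebrate genomes a miR-99/100 gene, a let-7 gene and a miR-125 gene often lie side by side, so the families come in clusters as well as in groups of like sequence.

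The mature sequences show how the families are built, and 4 of the 5 members (all but miR-99a) were matched to RefSeq entries on the rat assembly GRCr8. Seeds, bases 2 to 8 counted from the 5′ end, are in capitals, first for the members, then for miR-351, which carries the miR-125 seed, and then for the let-7 miRNAs encoded beside the members.
miR-99b-5p: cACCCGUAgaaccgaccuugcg
miR-100-5p: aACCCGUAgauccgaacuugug
miR-125a-5p: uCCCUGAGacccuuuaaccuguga
miR-125b-5p: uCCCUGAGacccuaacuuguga
miR-351-5p: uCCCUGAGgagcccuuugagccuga
let-7a-5p: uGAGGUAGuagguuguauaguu
let-7c-5p: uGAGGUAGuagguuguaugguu
let-7e-5p: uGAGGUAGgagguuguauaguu

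miR-99b and miR-100 have the same seed and differ at 4 positions (C1A, A11U, C16A and C21U, the miR-99b base first). They are the only 2 of the 693 mature entries searched that carry ACCCGUA at bases 2 to 8. The entries searched hold none for miR-99a, so this count says nothing about the seed of miR-99a. miR-125a and miR-125b share their first 13 bases, and CCCUGAG is held by 3 entries, the third being miR-351. The let-7 partners are closer than these pairs of members, since let-7a and let-7c differ by A19G and let-7a and let-7e by U9G. Pairs with miR-99a could not be compared, as its sequence was missing. Whether a primer pair also picks up a close relative of its target was not tested.

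Each member sits in a cluster with a let-7 gene. Mir99b, Mirlet7e and Mir125a follow each other on chromosome 1 within the span of Spaca6, with mature miR-99b-5p at chr1:67350070-67350091 and miR-125a-5p at chr1:67350689-67350712, both on the plus strand of GRCr8. Mir100, Mirlet7a-2 and Mir125b1 lie on chromosome 8 within the span of Mir100hgl, and miR-100-5p is at chr8:50798307-50798328 on the plus strand. Mir99a, Mirlet7c1 and Mir125b2 lie on chromosome 11 within the uncharacterized gene LOC103693508. miR-125b-5p is made from both the chromosome 8 and the chromosome 11 gene, so its assay sums both, and the copy shown above is that of Mir125b2, at chr11:29732588-29732609.

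Before the values of single members, the arrays themselves differed. The CT of a well is its threshold cycle in the PCR, so a lower CT means more template. miRNA assays with a CT numbered 282 to 306 per array at E20, 224 to 307 at P5, 179 to 273 at P15 and 202 to 223 at P25. The lowest count belonged to replicate 1 at P5, P15 and P25, and to replicate 3 at E20. The interplate calibrator, added to every array, varied between CT 18.3 and 19.0. All member values below were obtained by taking the member's CT from its array's median CT over detected miRNAs, a log2 scale on which 1 unit is 1 cycle. Primer pairs can differ in efficiency, so the height of one member above another is a description only.

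miR-125b was the member with the lowest CT on most arrays. By CT, counted from the lowest, it stood between 6th and 21st among the detected miRNAs of an array (median 10), and miR-99a between 16th and 40th (median 22). miR-125a ranged from 1st to 57th (median 21.5), and it was first on the array of E20 replicate 3. miR-99b lay lower, between 31st and 81st, and miR-100 lowest of the family, between 69th and 192nd on the 11 arrays that gave it a CT.

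miR-99a, from the chromosome 11 cluster, increased in mean from age to age. Its normalized log2 values were 3.65, 3.45 and 3.10 in E20 replicates 1 to 3, 4.27, 4.60 and 3.33 at P5, 3.20, 5.12 and 5.61 at P15, and 4.80, 5.14 and 4.92 at P25. The means were 3.40 ± 0.28 (SD, n = 3), 4.07 ± 0.66, 4.65 ± 1.27 and 4.95 ± 0.17 at the 4 ages in that order. All P25 samples were above all E20 samples, but P5 and P15 each overlapped E20, and no step between neighboring ages passed the test (limma adjusted p of 0.854, 0.879 and 0.949). On the CT scale without an array reference miR-99a hardly moved, with mean CTs of 28.7 at E20 and 28.9 at P25.

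miR-99b, from the chromosome 1 cluster, went the other way in mean. It gave 3.29, 3.22 and 3.37 at E20, 1.89, 2.87 and 2.27 at P5, 0.81, 3.15 and 3.39 at P15, and 2.62, 1.21 and 1.27 at P25. The E20 samples were tight at 3.29 ± 0.07, above all P5 and all P25 samples, whereas P15 replicate 3 exceeded them slightly. The means of the later ages were 2.34 ± 0.49 at P5, 2.45 ± 1.42 at P15 and 1.70 ± 0.80 at P25, and they did not separate beyond the spread of the samples. The mean CT of miR-99b was 28.9 at E20, close to that of miR-99a, and 32.2 at P25.

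miR-100, from the chromosome 8 cluster, was the faintest member and the least precise. Its values were 1.08, 0.45 and 0.77 at E20, -3.40, 0.71 and 0.15 at P5, 0.75 and 2.27 in P15 replicates 2 and 3, and -1.82, 0.89 and 0.75 at P25. P15 replicate 1 gave no CT, and the fit used an imputed value there. The low samples at P5 and P25, both replicate 1, had CTs of 37.5 and 36.0. On these arrays, as on that of P15 replicate 1, the fewest assays of their age were detected. The measured P15 samples lay above all P5 samples, and every other pair of ages overlapped. Precision fell with the CT on these arrays. Where a miRNA had assays of both species, the SD of their difference over the samples was taken. Its median was 0.495 cycles in the 3 such miRNAs read below CT 32 on average. It was 0.895 cycles in the 9 read at CT 32 to 35, and 1.71 cycles in the 7 read above CT 35. The mean CT of miR-100 over the 11 arrays that measured it was 32.8.

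miR-125a showed no order with age. It gave 3.51, 4.00 and 7.04 at E20, 3.79, 3.74 and 3.74 at P5, 3.47, 3.71 and 5.69 at P15, and 4.92, 2.46 and 5.67 at P25. The P5 samples nearly coincided, at 3.76 ± 0.03, whereas E20 (4.85 ± 1.91) and P25 (4.35 ± 1.68) each spanned more than the whole difference between ages. The highest value came from E20 replicate 3, with a CT of 25.2 against 28.4 and 28.2 in the other E20 samples.

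miR-125b was high at all ages. It gave 5.71, 5.23 and 5.37 at E20, 4.21, 5.61 and 4.57 at P5, 3.21, 5.59 and 6.84 at P15, and 5.41, 5.70 and 6.12 at P25. The means ran in the order P5 (4.80 ± 0.73), P15 (5.21 ± 1.84), E20 (5.44 ± 0.24) and P25 (5.74 ± 0.36), and every neighbor in this order lay within the spread of the samples.

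P15 replicate 1, the array with 179 detected assays, was the lowest P15 sample for each of the 4 members it measured, and it was the sample without miR-100. Neighbors on that array did not all follow. let-7e (1.91), let-7a (3.02) and let-7c (3.36) were lowest of P15 there too. miR-351, added after its values were seen, was highest of P15 at 4.80. The part of this array's low detection in the members' values was not tested; values without it are given below where they change a call.

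**Figure D1:**
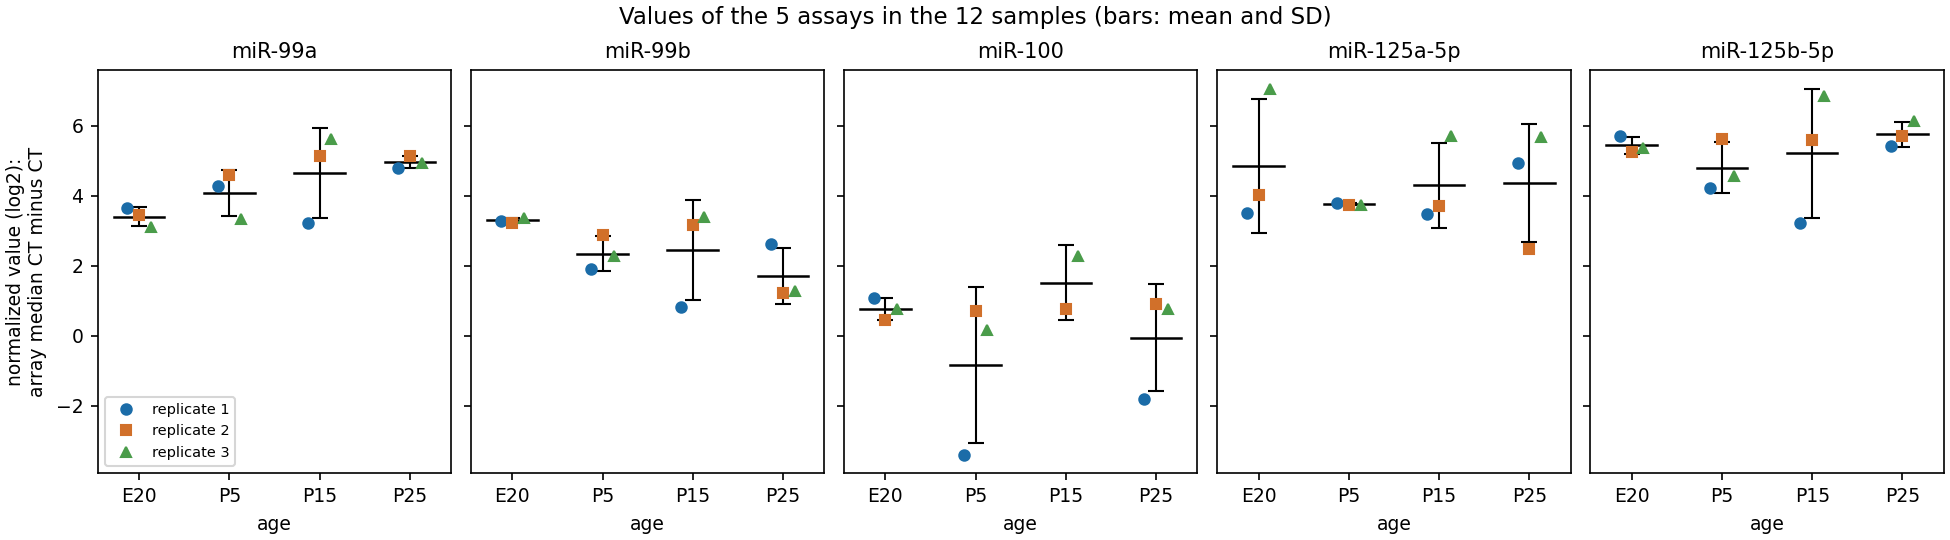
Normalized value (log2, array median CT minus CT, vertical axis) of each of the 5 members in every sample at E20, P5, P15 and P25 (horizontal axis). Points are samples, marked by replicate number, and bars are the mean and SD; miR-100 has 2 points at P15. miR-99a at P25 (4.80 to 5.14) lies above E20 (3.10 to 3.65), miR-99b at P25 (1.21 to 2.62) lies below E20 (3.22 to 3.37), and the other members overlap between those ages.

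The study asked which miRNAs change across differentiation, and the first test compared all 4 ages. None of the 5 members passed limma's moderated F test at an adjusted p under 0.05, and none had an unadjusted p under 0.05. Of all 192 assays, 7.81% were called in that test, and 20.8% had an unadjusted p under 0.05. The members' adjusted p ran from 0.493 for miR-99a and 0.571 for miR-99b to 0.787 for miR-100, 0.855 for miR-125b and 0.876 for miR-125a.

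Between E20 and P25, the pair of ages farthest apart, miR-99a had the largest increase and miR-99b the largest decrease among the members, and neither was called. The change of miR-99a was 1.55 on the log2 scale (SE 0.76, 95% interval -0.05 to 3.16, limma adjusted p = 0.172). That of miR-99b was -1.59 (SE 0.80, interval -3.29 to 0.11, limma adjusted p = 0.179). The remaining changes were -0.83 for miR-100 (interval -3.29 to 1.64), -0.50 for miR-125a (-2.70 to 1.70) and 0.31 for miR-125b (-1.52 to 2.14), with limma adjusted p of 0.658, 0.749 and 0.820. Each of these 3 intervals holds changes of more than 1 cycle in either direction, so changes of that size could not be told from none with 3 samples an age.

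In all, 0 of 5 members were called between E20 and P25 by limma, and 0 of 5 had an unadjusted p under 0.05, against 12.0% called and 32.3% with an unadjusted p under 0.05 among all 192. The members spread over the list. Counted from the highest change, miR-99a stood 40th, miR-125b 91st, miR-125a 119th, miR-100 134th and miR-99b 153rd of 192. The median change of the 5 was -0.50, which is the change of miR-125a, and that of all 192 was 0.15. The sign of the members' median rested on single samples, as it was 0.27 without E20 replicate 3, 0.33 without P25 replicate 2 and 0.054 without P25 replicate 1, and it was also above 0 under 2 references (0.23 with the median after imputation and 0.50 with the small nuclear RNAs). Without overlap between the 3 E20 and 3 P25 samples, 1 member was higher at P25 (miR-99a) and 1 lower (miR-99b), where 21.8% of the 156 assays measured in all 6 samples were higher and 17.3% lower.

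**Figure D2:**
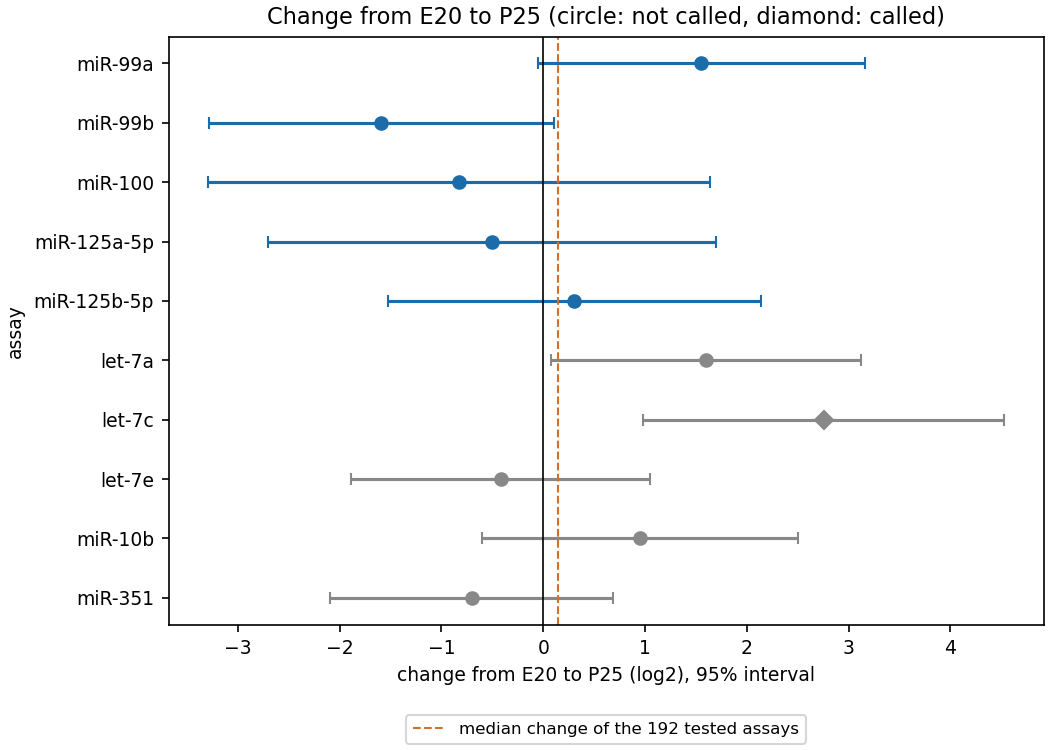
Change from E20 to P25 (log2, horizontal axis) with its 95% interval from limma for the 5 members (blue) and for let-7a, let-7c, let-7e, miR-10b and miR-351 (gray). The dashed line is the median change of the 192 tested assays (0.15), and of the assays drawn the diamond (let-7c, 2.75) is the one that passed an adjusted p under 0.05.

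The other pairs of ages gave no member call either. From P5 to P25, 0 of 5 members passed, against 3.12% of all assays, and 0 had an unadjusted p under 0.05 by limma, against 17.2%. For E20 to P5, E20 to P15, P5 to P15 and P15 to P25, limma called 0% of all assays and no member; an unadjusted p under 0.05 was reached by 7.81%, 20.8%, 6.25% and 8.85% of the assays in that order, and by no member. From E20 to P5 the members' changes were 0.67 for miR-99a, -0.95 for miR-99b, -1.62 for miR-100, -1.10 for miR-125a and -0.64 for miR-125b.

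A linear trend with age in days, with E20 placed 2 days before birth, was then fitted. No member was called, against 14.1% of all assays, and miR-99a was the 1 member with an unadjusted p under 0.05, against 31.2% of all assays. Per 10 days the slope of miR-99a was 0.57 (SE 0.26, interval 0.010 to 1.12, limma adjusted p = 0.153, unadjusted 0.0466), and that of miR-99b was -0.50 (limma adjusted p = 0.221). The slopes of miR-100 (-0.089), miR-125a (-0.077) and miR-125b (0.17) were small beside their errors. Without P15 replicate 1, the slope of miR-99a was 0.64 and passed (limma adjusted p = 0.0396). That fit called more assays in general, with 20.3% of all 192 called from E20 to P25 against 12.0% in the main fit.

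The direction of a single member depended on what the array was scaled to. Under 7 references, from the CTs as deposited to the small nuclear RNAs, the median change of all 192 assays from E20 to P25 moved between -1.58 and 1.15. A reference moves all assays of an array alike, so a member's distance from that median is the same under each by construction. Relative to it miR-99a was 1.41 higher, miR-125b 0.16 higher, miR-125a was at -0.65, miR-100 at -0.97 and miR-99b at -1.73. miR-99b fell below 0 under every reference (-3.31 to -0.59), with no call in any. miR-99a was above 0 in 6 of the 7, at -0.17 with no reference. It passed the test under 2 of them, at 1.79 with the median of the assays detected in all 12 samples (limma adjusted p = 0.0275) and at 2.29 with the median taken after imputation (limma adjusted p = 0.0121). Under these references 20.8% and 24.5% of all assays were called, against 12.0% with the array median.

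**Figure D3:**
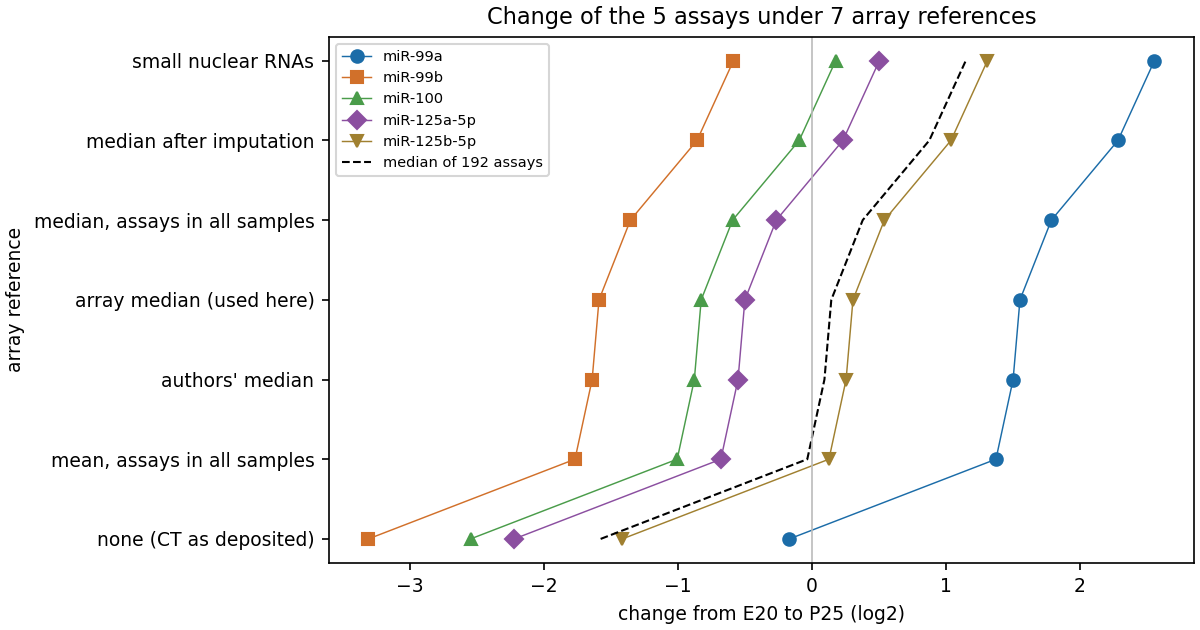
Change of each member from E20 to P25 (log2, horizontal axis) under 7 array references (vertical axis, ordered by the median change). The dashed line is the median change of the 192 tested assays, from -1.58 with no reference to 1.15 with the small nuclear RNAs. By construction the members keep their distance from it, from -1.73 for miR-99b to 1.41 for miR-99a.

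A difference between 2 assays on the same array needs no reference, so relatives were next compared within arrays. miR-99a and miR-99b, of the same family but of different clusters, drew apart with age. Their difference, miR-99a minus miR-99b, was 0.36, 0.22 and -0.26 at E20, 2.38, 1.73 and 1.06 at P5, 2.39, 1.97 and 2.22 at P15, and 2.17, 3.93 and 3.65 at P25. The means were 0.11 ± 0.33 (SD, n = 3), 1.72 ± 0.66, 2.20 ± 0.21 and 3.25 ± 0.94. At E20 the assays crossed threshold nearly together, and at all later ages miR-99a crossed it at least 1 cycle before miR-99b in every sample.

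From E20 to P25 this difference grew by 3.14 (SE 0.84, interval 1.35 to 4.94), a change of 8.84-fold in the ratio if each cycle doubles the template (limma adjusted p = 0.0200 over all 18336 pairs of tested assays). The call was lost without E20 replicate 2 (limma adjusted p = 0.0550), E20 replicate 3 (0.0772) or P25 replicate 2 (0.0688), with changes of 3.20, 2.96 and 2.81. At P15, where miR-99a alone ran from 3.20 to 5.61, the difference stayed between 1.97 and 2.39.

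The remaining family pairs were not called. miR-99a minus miR-100 went from 2.63 ± 0.34 at E20 to 5.01 ± 1.39 at P25, a change of 2.38 (interval -0.15 to 4.91, limma adjusted p = 0.170), without overlap between those ages. miR-100 minus miR-99b changed by 0.76 (limma adjusted p = 0.695), and single P25 samples moved this value, to 2.10 without replicate 1, 0.044 without replicate 2 and 0.14 without replicate 3. miR-125b minus miR-125a was 2.20, 1.23 and -1.67 at E20 and 0.49, 3.24 and 0.45 at P25, overlapping values with a change of 0.81 (limma adjusted p = 0.666).

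In all, 13 pairs were examined, 4 within a family and 9 within a cluster, and 1 was called, where 19.4% of all 18336 pairs were called and 34.5% had an unadjusted p under 0.05. Values did not overlap between E20 and P25 in 7 of the 13, against 42.3% of the 12090 pairs measured in all 6 samples. The count of called pairs was thus not above that of pairs in general, and the count without overlap was close to it.

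**Figure D4:**
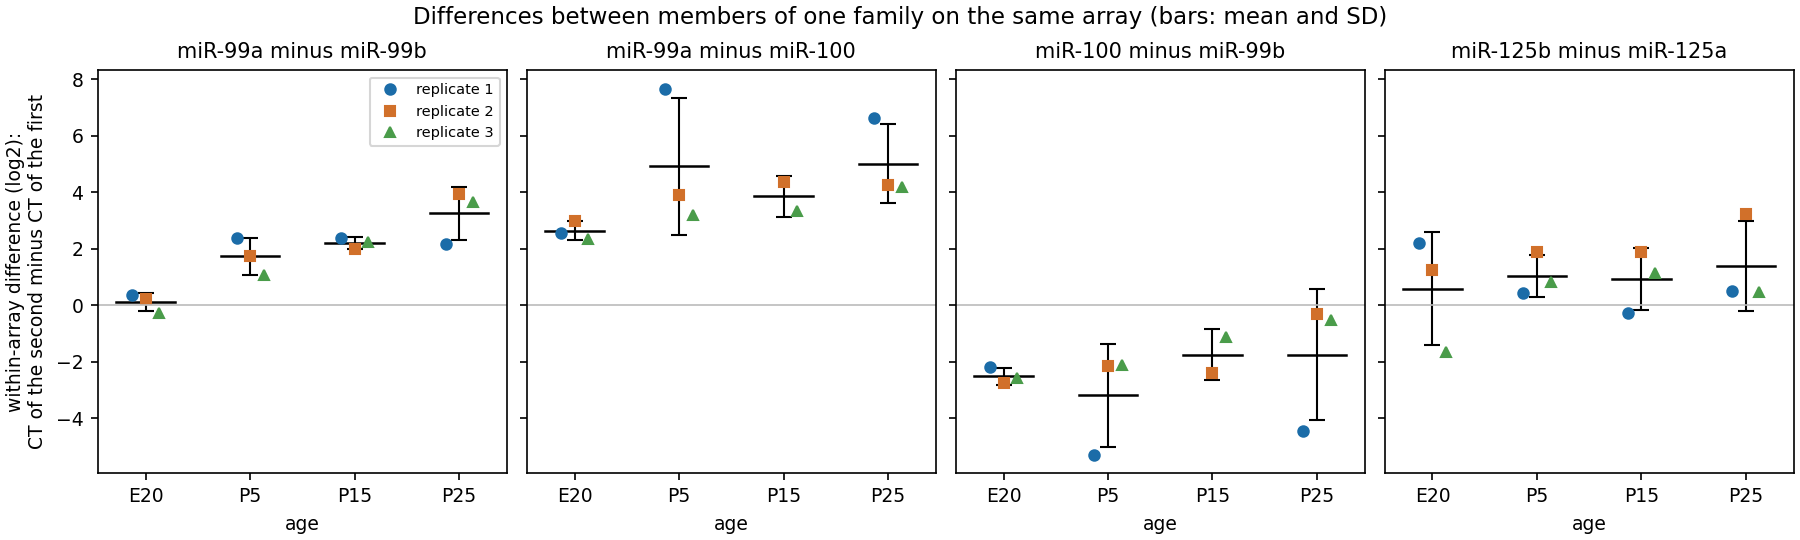
Within-array difference (log2, CT of the second assay minus CT of the first, vertical axis) for the 4 pairs of relatives in every sample at E20, P5, P15 and P25 (horizontal axis), with mean and SD. miR-99a minus miR-99b goes from 0.11 ± 0.33 at E20 to 3.25 ± 0.94 at P25; the pairs with miR-100 have 2 points at P15, and miR-125b minus miR-125a overlaps between all ages.

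The members were also set beside the let-7 miRNA encoded with them. In the chromosome 11 cluster let-7c increased from E20 to P25 by 2.75 (limma adjusted p = 0.0388), the 1 call among the 3 let-7 partners. Its values were 3.61, 2.31 and 1.75 at E20 and 5.49, 6.21 and 4.23 at P25, without overlap. miR-99a minus let-7c lay between -1.07 and 1.35 over the 12 samples, with overlap between E20 and P25 and a change of -1.20 (limma adjusted p = 0.332). miR-99a minus miR-125b lay between -2.27 and 0.062, without overlap between E20 and P25 and with a change of 1.25 (limma adjusted p = 0.299). miR-125b minus let-7c went from 2.88 ± 0.76 at E20 to 0.43 ± 1.28 at P25, a change of -2.45 without overlap (limma adjusted p = 0.0818). It was called with the CT limit lowered to 35 (limma adjusted p = 0.0449) and without P25 replicate 3 (change -3.18, limma adjusted p = 0.0413). Of all pairs, 21.3% and 16.0% were called in these fits in that order, against 19.4% in the main fit.

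In the chromosome 1 cluster all 3 miRNAs had means lower at P25 than at E20, and none was called. For miR-125a this direction turned without E20 replicate 3 (0.60) or P25 replicate 2 (0.44), and with the small nuclear RNAs (0.50) or the median after imputation (0.23). let-7e changed by -0.42 (limma adjusted p = 0.701). A reference moves all assays of an array alike, and let-7e changed less than miR-125a. The small nuclear RNAs and the median after imputation therefore turned the direction of let-7e as well. miR-99b minus let-7e was above 0 in all E20 samples (0.61 to 1.04) and below 0 in all P25 samples (-0.89 to -0.13), with a change of -1.17 (limma adjusted p = 0.333). miR-99b minus miR-125a changed by -1.09 and miR-125a minus let-7e by -0.08, both with overlap (limma adjusted p = 0.534 and 0.972). The first ranged from -2.15 without E20 replicate 3 to -0.21 without P25 replicate 3.

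In the chromosome 8 cluster let-7a changed by 1.60 (limma adjusted p = 0.139), without overlap between E20 and P25. let-7a and let-7c are also encoded at other places in the genome, so their assays do not read the cluster alone. miR-100 minus let-7a changed by -2.43 (limma adjusted p = 0.181), and miR-125b minus let-7a by -1.29 (limma adjusted p = 0.341). miR-100 minus miR-125b changed by -1.13 (limma adjusted p = 0.454), and all P25 samples lay below all E20 samples. It was -4.67 ± 0.10 at E20 and lay between -5.37 and -4.42 in all samples but the pair with a miR-100 CT of 36.0 or more, where it was -7.61 (P5 replicate 1) and -7.23 (P25 replicate 1).

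**Figure D5:**
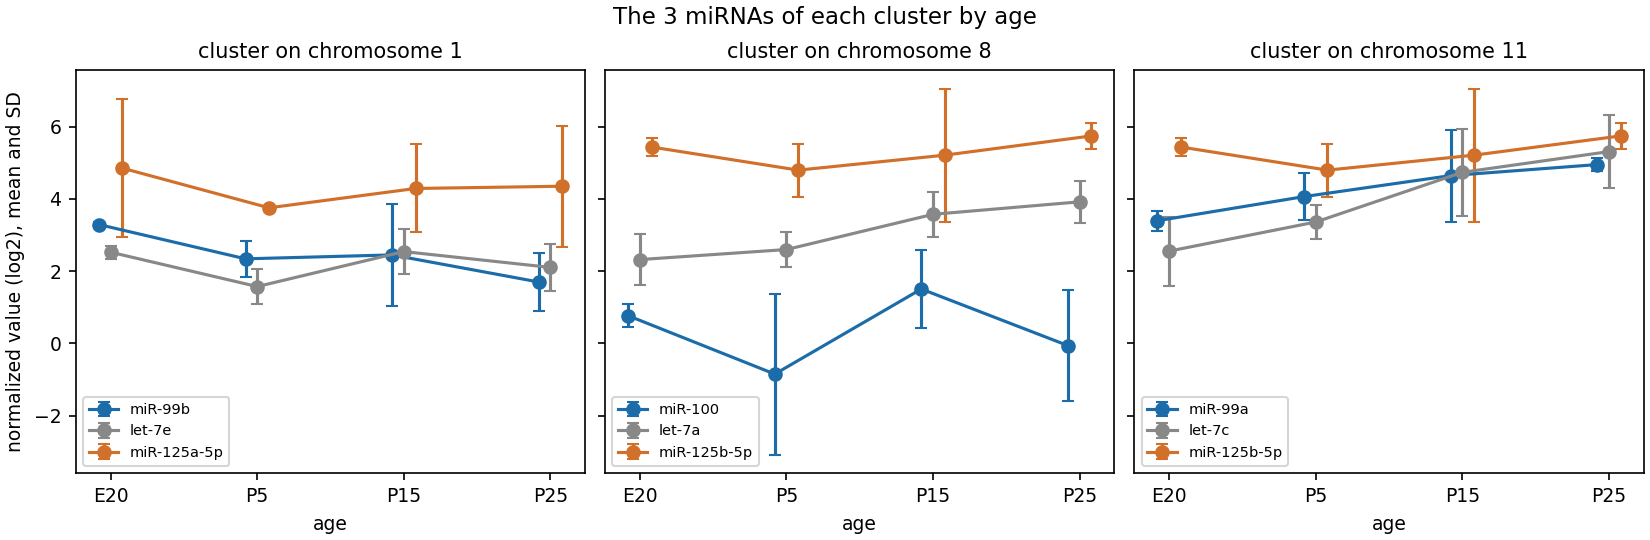
Mean and SD (n = 3; n = 2 for miR-100 at P15) of the normalized value (log2, vertical axis) by age (horizontal axis) for the 3 miRNAs of each cluster; miR-125b, made from 2 genes, is drawn in both of its clusters. In the chromosome 11 cluster miR-99a (3.40 to 4.95) and let-7c (2.56 to 5.31) have higher means at each later age, and in the chromosome 1 cluster miR-99b goes from 3.29 to 1.70.

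Over the 12 samples, which share an array reference and differ in detection, miR-99a had a Pearson r of 0.887 with let-7c and 0.802 with let-7a, and -0.0071 with miR-99b; without P15 replicate 1 these were 0.909, 0.855 and -0.28. Only the members and their let-7 partners were compared in this way. Among them miR-99b was nearest to its own partner let-7e (r = 0.661). miR-125b was nearest to miR-100 (r = 0.765 over 11 samples, which leave out P15 replicate 1 already). These are descriptions without a test. Members of one family were not close to each other. miR-100 had r = 0.143 with miR-99a and 0.323 with miR-99b, each over 11 samples, and miR-125a had 0.370 with miR-125b. Likeness to a family's mean is therefore not likeness to each of its members. The assays closest to the mean of the miR-99/100 members, among the 116 other assays measured in all samples, were miR-24 (r = 0.896), miR-30d (0.871), miR-23a (0.871), miR-106a (0.853) and miR-23b (0.851), where the median assay had 0.362; without P15 replicate 1 the 5 lay between 0.780 and 0.857. For the mean of the miR-125 members they were miR-23a (0.661), miR-152 (0.655), miR-19a (0.643), miR-24 (0.619) and miR-16 (0.591), and without P15 replicate 1 these fell to between 0.368 and 0.514.

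miR-351, which has the miR-125 seed but comes from chromosome X, was examined because of its sequence after its values were known. Its normalized values were 4.27, 4.23 and 4.34 at E20, 4.02, 3.95 and 4.03 at P5, 4.80, 4.27 and 3.63 at P15, and 3.82, 3.12 and 3.79 at P25. The P25 samples lay below E20, with a change of -0.70 that was not called (SE 0.66, limma adjusted p = 0.474). The seed was therefore carried by 3 measured miRNAs, and none of them was called between E20 and P25. Of the miR-10 miRNAs, relatives of the miR-99/100 family in sequence, miR-10b changed by 0.95 (limma adjusted p = 0.399), and miR-10a was below the detection filter with a CT in 7 of 12 samples.

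Of the wider let-7 family, 1 of the 6 other assays was called higher at P25 and none lower, with a median change of 0.60. Among all 192 assays 4.17% were called higher at P25 and 7.81% lower, and the counts of the lists below are to be read against these shares. miRNAs that mark cell types were read beside the members, since members of both families are also made outside epithelium. Of 11 epithelial and secretory assays, 10 or 11 had a CT on every array. Among them 2 were called higher at P25 (miR-148a, 5.20, and miR-375, 8.09) and none lower. Changes were above 0 in 9, whereas miR-205 (-2.23) and miR-203 (-2.13) went lower without a call. The log2 of the summed level of the list was 6.99 to 8.40 at E20 and 9.06 to 9.81 at P25. Such a sum is weighted toward the assays with the lowest CT. Of 9 fibroblast, smooth muscle and pericyte assays, 1 was called higher (miR-145, 4.74) and 1 lower (miR-214, -4.53). miR-199a-5p (-2.71) and miR-199a-3p (-2.08) also went lower without a call, and 6 of the 9 had changes above 0. The log2 sum was 6.09 to 6.54 at E20 and 6.73 to 7.61 at P25, and it does not show this split. Striated muscle assays, 3 of 5 tested, gave 2 calls lower. Their log2 sum was 4.36 to 6.23 at E20 and 0.17 to 1.88 at P25, where 2 of the 5 had no CT in any sample. Detection was lower at P25 for the whole array (202 to 223 assays, against 282 to 306 at E20). miR-155 of the leukocyte list also had no CT at P25. Endothelial (2 assays), leukocyte (5 of 7 tested) and nerve (2 of 7 tested) assays gave no call, and none of the 3 erythrocyte assays passed the detection filter. The part of these cells in the members' values was not tested.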

How the data were processed

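miRNA levels were measured by qRT-PCR in 12 samples of laser-captured rat parotid acinar cells, 3 at each of 4 ages, all assigned from their labels. The authors made cDNA from 1 ng of total RNA, ran an LNA primer panel and deposited raw CT values, a score on a log2-like scale, with no normalization or imputation; undetermined wells were read as missing. The array medians deposited beside them were used as an alternative only.

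The members, pairs and miRNA lists were chosen with earlier results of these data known. An assay was tested if every age had a CT under 40 in 2 or more of its 3 replicates (192 of 375). Normalization took each CT from its array's median over detected miRNAs, giving the log2 values computed here from the deposited scores. Missing values (5.30% of wells, 1 of them for miR-100) were imputed from the 10 nearest miRNAs. The 4 age means were fitted with limma 3.58.1 (R 4.3.3), with moderated F tests, contrasts and a linear trend in days. P-values were adjusted by Benjamini-Hochberg over all 192 assays, or over all 18336 within-array pairs, and called at an adjusted p under 0.05. The procedure was tested on simulated data. Figures were drawn with matplotlib 3.10.9.

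Named miRNAs were the members, the let-7 miRNAs of their clusters, miR-10a and miR-10b, and the 5 assays with the highest r to each family's mean (miR-100 imputed in 1 sample); miR-351 was added after its values were seen. Depth is the number of assays with a CT per array, and the number of samples limits the precision. Replicate numbers were checked for pairing by the correlation of deviations from the age means over 120 assays. Of the 9 correlations that involve E20, 1 exceeded 0.1 (range -0.234 to 0.123), and E20 was therefore compared without pairing. Among P5, P15 and P25 all 9 exceeded 0.1 (0.126 to 0.563). The main fit compared these ages without pairing as well, and a replicate block was fitted as an alternative. Mature sequences were taken from RefSeq (GRCr8). Neither the labels nor the paper's methods name a genome build, and other data of the study were not used here.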

Additional observations from a re-analysis of the deposited data

How the results depend on the processing

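The alternatives changed the detection filter, the array reference, the missing values, the CT limit, the moderation, the samples fitted and the replicate block; leaving out P5 and P15 replicate 1 together was chosen after seeing the data. Members called across the 4 ages and in the other pairs of ages were 0 under all that were run. Members called from E20 to P25 were 1 (miR-99a) with the median of the assays detected in all 12 samples and with the median after imputation, where 20.8% and 24.5% of all assays were called. Members called in the linear trend were 1 (miR-99a) with those references (slopes of 0.66 and 0.81), 1 without both of those arrays (0.65), and 0 to 1 with 1 sample left out. From E20 to P25, 21.4% of all assays were called without both of those arrays, and 5.73% to 20.3% with 1 sample left out. Called pair differences were 2 with the CT limit at 35, and 0 to 2 with 1 sample left out. Of all pairs, 21.3% were called with that limit, and 10.5% to 23.5% with 1 sample left out. miR-99a minus miR-99b kept an adjusted p between 0.00760 and 0.0491 in every other alternative, from no moderation to missing values set to CT 40, and between 0.0168 and 0.0772 with 1 sample left out.

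Uncalled changes crossed 0 as follows, and the cause was not tested beyond the shift of the reference itself. With no reference, miR-99a was -0.17 (slope -0.091) and miR-125b -1.42 (slope -0.49). With the small nuclear RNAs, of which 2 were measured on all arrays at a mean CT of 20.5 to 32.4, miR-125a was 0.50 (slope 0.50), miR-100 0.18 (slope 0.49) and the slope of miR-99b 0.082. With the median after imputation miR-125a was 0.23 (slope 0.16) and the slope of miR-100 0.15, and with the median of the assays detected in all samples the slopes of miR-125a and miR-100 were 0.021 and 0.0083. The slope of miR-100 was also 0.016 with missing values left missing, and miR-125b was -0.43 (slope -0.11) with the CT limit at 35. With 1 sample left out, miR-125a ranged from -1.17 to 0.60 (slope -0.30 to 0.26), miR-100 from -1.30 to 0.054 (slope -0.26 to 0.24), miR-125b minus miR-125a from -0.32 to 1.61 and miR-125a minus let-7e from -1.06 to 1.12. With the replicate number as a block, 0 members and 1 pair difference were called from E20 to P25 (miR-99a 1.55, adjusted p = 0.174; miR-99a minus miR-99b 3.14, adjusted p = 0.0226), and no member's call changed. The block fit called 16.7% of all assays and 23.3% of all pairs. All assays called from E20 to P25 numbered 23 in the main fit, between 0 with the small nuclear RNAs and 47 with the median after imputation. Fitting only E20 and P25 gives no F test or trend, and miR-100 has no value where detection in all 12 samples was required.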
